A study of Mus musculus with 9 samples.

Results

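The genes described here encode the proteasome, the protease complex that breaks down ubiquitin-tagged proteins. They were taken by name: protein-coding mouse genes whose symbol is Psma, Psmb, Psmc, Psmd or Psme followed by a digit, with a deposited value of at least 1 in at least 3 libraries. Of 45 such genes in the annotation, 44 had a row in the expression table, and all 44 passed that filter, among 13771 genes that passed it in all. Psmb11, the catalytic subunit of the thymus form, was not analysed here. Psmc3ip matched by name only: it encodes a recombination factor that binds PSMC3, not a subunit. The other 43 genes encode subunits, assembly chaperones and activators.

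RNA was sequenced from LSK cells, the lineage-negative, Sca-1-positive and c-Kit-positive fraction of bone marrow that holds blood stem cells and early progenitors. The cells were sorted from parabiotic mice, animals joined surgically so that blood cells pass from one partner to the other. The 9 libraries formed 3 groups of 3, named circulating (strain label C57BL/6), irradiated (C57BL/6) and endogenous (B6SJL CD45.1). By the series' description, circulating LSK cells had moved through blood into the marrow of an irradiated partner. The sources used here do not give the irradiation dose, the time after surgery or the age of the mice. Strain label and group change together in both comparisons with endogenous cells, so they cannot be told apart there. The titles of circulating and irradiated libraries with the same replicate number share a code, and endogenous titles carry another. A further title code sets the irradiated group apart, while the circulating group has it in common with the endogenous group. The labels do not say what the codes stand for or which libraries share an animal. The p-values therefore speak for the spread among these 9 samples, part of which may be technical.

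The proteasome consists of a barrel, the core particle, capped by the regulatory particle. The barrel has outer rings of alpha subunits (Psma genes), which gate the entrance, and inner rings of beta subunits (Psmb genes). Of the beta subunits, Psmb5, Psmb6 and Psmb7 carry the proteolytic sites. Interferon induces Psmb8, Psmb9 and Psmb10, which take the places of Psmb5, Psmb6 and Psmb7 in newly made barrels. The result is the immunoproteasome, known for making peptides for MHC class I. The regulatory particle has a base, with ATPases (Psmc genes) that unfold substrates, and a lid with the deubiquitinase Psmd14. Activators (Psme genes) cap the barrel without needing ubiquitin. The transcription factor NRF1 (gene Nfe2l1) raises subunit genes together through antioxidant response elements when proteasome activity is short, and blood stem cells are known for a low rate of protein synthesis.

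Promoter windows of 4 catalytic subunit genes are shown because the comparison of constitutive with immunoproteasome subunits turns on them. Each runs from 250 bases before to 50 bases after the transcription start in RefSeq, on GRCm38.p6. Psmb5 lies at chr14:54617946-54618245 on the minus strand and Psmb6 at chr11:70525107-70525406 on the plus strand. Psmb8 lies at chr17:34197945-34198244 on the plus strand and Psmb9 at chr17:34187281-34187580 on the minus strand. Capitals mark matches to a motif, described after the sequences.
Psmb5: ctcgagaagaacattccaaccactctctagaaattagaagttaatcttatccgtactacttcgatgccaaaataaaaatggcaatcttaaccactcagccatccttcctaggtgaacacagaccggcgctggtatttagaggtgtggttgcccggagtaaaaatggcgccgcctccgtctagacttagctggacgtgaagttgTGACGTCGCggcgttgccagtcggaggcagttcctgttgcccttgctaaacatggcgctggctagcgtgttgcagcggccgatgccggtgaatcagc
Psmb6: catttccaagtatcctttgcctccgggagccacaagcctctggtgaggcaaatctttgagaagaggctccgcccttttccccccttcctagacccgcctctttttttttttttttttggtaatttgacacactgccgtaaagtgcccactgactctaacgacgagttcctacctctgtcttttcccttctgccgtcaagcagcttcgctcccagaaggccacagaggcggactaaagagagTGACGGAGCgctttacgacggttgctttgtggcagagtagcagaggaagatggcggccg
Psmb8: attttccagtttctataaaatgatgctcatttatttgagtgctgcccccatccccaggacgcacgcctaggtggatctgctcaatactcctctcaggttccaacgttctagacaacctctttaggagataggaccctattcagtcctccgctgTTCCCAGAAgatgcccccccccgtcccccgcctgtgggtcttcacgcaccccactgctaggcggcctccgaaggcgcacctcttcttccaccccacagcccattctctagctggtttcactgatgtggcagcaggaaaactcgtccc
Psmb9: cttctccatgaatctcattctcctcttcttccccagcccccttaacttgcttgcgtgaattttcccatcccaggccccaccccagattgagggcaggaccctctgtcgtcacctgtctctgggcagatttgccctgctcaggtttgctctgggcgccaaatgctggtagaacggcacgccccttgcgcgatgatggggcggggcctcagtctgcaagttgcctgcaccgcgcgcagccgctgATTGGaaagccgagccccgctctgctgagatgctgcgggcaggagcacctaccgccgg

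The motifs searched, on both strands, were TGACNNNGC (the core of the antioxidant response element), the core of the interferon-stimulated response element (GAAA, any 2 bases, GAAA), TTCNNNGAA (the gamma-activated site) and CCAAT. In the constitutive genes the capitals are TGACGTCGC, starting 47 bases before the Psmb5 start, and TGACGGAGC, starting 9 bases before the Psmb6 start. In the immunoproteasome genes they are TTCCCAGAA, starting 97 bases before the Psmb8 start, and ATTGG, the reverse complement of CCAAT, starting 8 bases before the Psmb9 start. The motif TTCNNNGAA is its own reverse complement, so TTCCCAGAA matches it on both strands. No match overlapped another. The Psmb9 window shares 275 of its 300 bases with that of Tap1, which encodes a peptide transporter and is read in the opposite direction. On GRCm38, Psmb9 spans chr17:34181987-34187764 and Psmb8 chr17:34197721-34201454, both within the MHC region. The windows of Psmb8 and Psmb9 lie inside these annotated spans, so they hold no sequence upstream of the annotated gene.

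Windows were found for 37 of the 44 genes, and none for Psma8, Psmb1, Psmb2, Psmb7, Psmc3, Psmd3 and Psmd7. TGACNNNGC matched in 6 of the 37 genes (Psmb5, Psmb6, Psmc6, Psmd9, Psmd12 and Psme4), a share of 16.2%, against 12.4% of all 32851 promoter windows. The interferon-stimulated core matched in Psmb3, Psmd4, Psmd9 and Psme1, 10.8% of the genes, against 3.44% of all windows. TTCNNNGAA matched in Psmb8 and Psmd2, 5.41% against 8.3%, and CCAAT in 14 genes, 37.8% against 37.4%. A match in letters is a description of these windows and not a site of binding.

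Values below are the deposited normalised values, without unit, and a value is not divided by transcript length unless said to be per kilobase or scaled by length. Estimated counts recovered from the table totalled 14065855 to 27012345 per library. The circulating libraries varied most: sample weights estimated over all genes were 0.435 to 0.571 for circulating, 1.62 to 1.78 for irradiated and 0.938 to 1.27 for endogenous libraries, where a low weight means a library that departs more from its group. Of the gate markers, Ly6a (Sca-1) stood at 138, 146 and 127 in circulating, 202, 159 and 163 in irradiated and 177, 194 and 169 in endogenous libraries. Kit stood at 328, 401 and 410 in circulating, 576, 562 and 622 in irradiated and 887, 1011 and 737 in endogenous libraries, so all libraries carried the defining transcripts and the 3 groups did not overlap for Kit. In bulk samples, fewer cells of a type and less RNA per cell cannot be told apart.

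Per kilobase of the annotated principal transcript, the proteasome genes spanned a wide range. The highest mean level was that of Psma7, an alpha ring subunit, at 473 per kilobase in circulating and 454 in irradiated libraries, and that of Psma1, another, at 346 in endogenous libraries. Psma1, Psma7, Psmb6 and Psme1 were among the 5 highest of the 43 subunits, chaperones and activators in each group. The lowest was Psme4, an activator best known from testis, at 4.98, 4.85 and 5.36 per kilobase in circulating, irradiated and endogenous libraries. It was followed upward by Psma8, the testis counterpart of Psma7, then Psme2b, then the base chaperones Psmd9 and Psmd10, in each group. The median over the 14 constitutive core subunits was 282 per kilobase in circulating libraries, 276 in irradiated libraries and 189 in endogenous libraries, and that over the 17 regulatory particle subunits was 166, 154 and 119. These levels depend on the transcript taken for each gene. For Psma3 and Psma2 it is a long one, of 2846 and 2911 bases.

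The first comparison, circulating against endogenous, asks how the LSK cells that had circulated differ from those labelled endogenous. Of the 31 constitutive subunits of the core and the regulatory particle, 16 were called higher in circulating cells, and the log2 fold changes of the 31 ran from 0.16 to 0.65. With limma and Benjamini-Hochberg adjustment over all tested genes, 17 of the 44 genes were called higher, where 5.33% of all tested genes were. None of the 44 was called lower, where 3.30% of all tested genes were. At an unadjusted p under 0.05, 33 were higher, against 14.2% of all tested genes, and 0 were lower, against 12.5%. By limma voom 0 were lower, where 1.91% of all tested genes were, and with sample weights 0 were lower, where 1.12% were. The log2 fold change was above 0 for 40 genes, against 47.0% of all tested genes. In 31 genes every circulating library lay above every endogenous library, against 14.6% of all tested genes, and in 0 genes every one lay below, against 12.9%. The median log2 fold change was 0.415 over the 44 genes, with a range of -0.40 to 0.65, against -0.04 over all tested genes.

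Genes with high values as a class also stood higher in circulating cells, and most proteasome genes are among them. Over the 2465 tested genes with a mean value of at least 100 the median log2 fold change was 0.213, and 17.8% were called higher. Of the 38 proteasome genes in that class, 17 were called higher. In 30 of the 38 the circulating libraries lay wholly above the endogenous ones, against 35.2% of the class. The log2 fold change was above 0 in 37 of the 38, against 69.9% of the class.

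The count of 17 rested on settings and on single libraries, while the direction did not turn in any called gene. It was 15 with limma voom, where 4.15% of all genes were called higher. It was 7 with sample weights, where 2.47% of all genes were called higher, and 1 (Psmd11) in a fit of the 2 groups alone, where 1.15% were. Psma3, Psma7, Psmb3, Psmc3, Psmd11, Psmd13 and Psmd14 passed with sample weights. With library size as the only scaling, which moves the median of all genes to -0.22, it was 2 (Psmd11 and Psmd13). Of all 13766 genes tested there, 336 were called higher. Leaving out circulating replicate 1 gave 27, replicate 2 gave 11 and replicate 3 gave 4. Of all 13771 tested genes, 1197, 550 and 300 were called higher in these fits, against 734 with all libraries. Leaving out irradiated replicates 1, 2 and 3 in turn gave 6, 9 and 7, and leaving out endogenous replicates 1, 2 and 3 gave 1, 3 and 1. In the same order, 401, 454 and 427 and then 183, 220 and 305 of all tested genes were called higher.

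**Figure D1:**
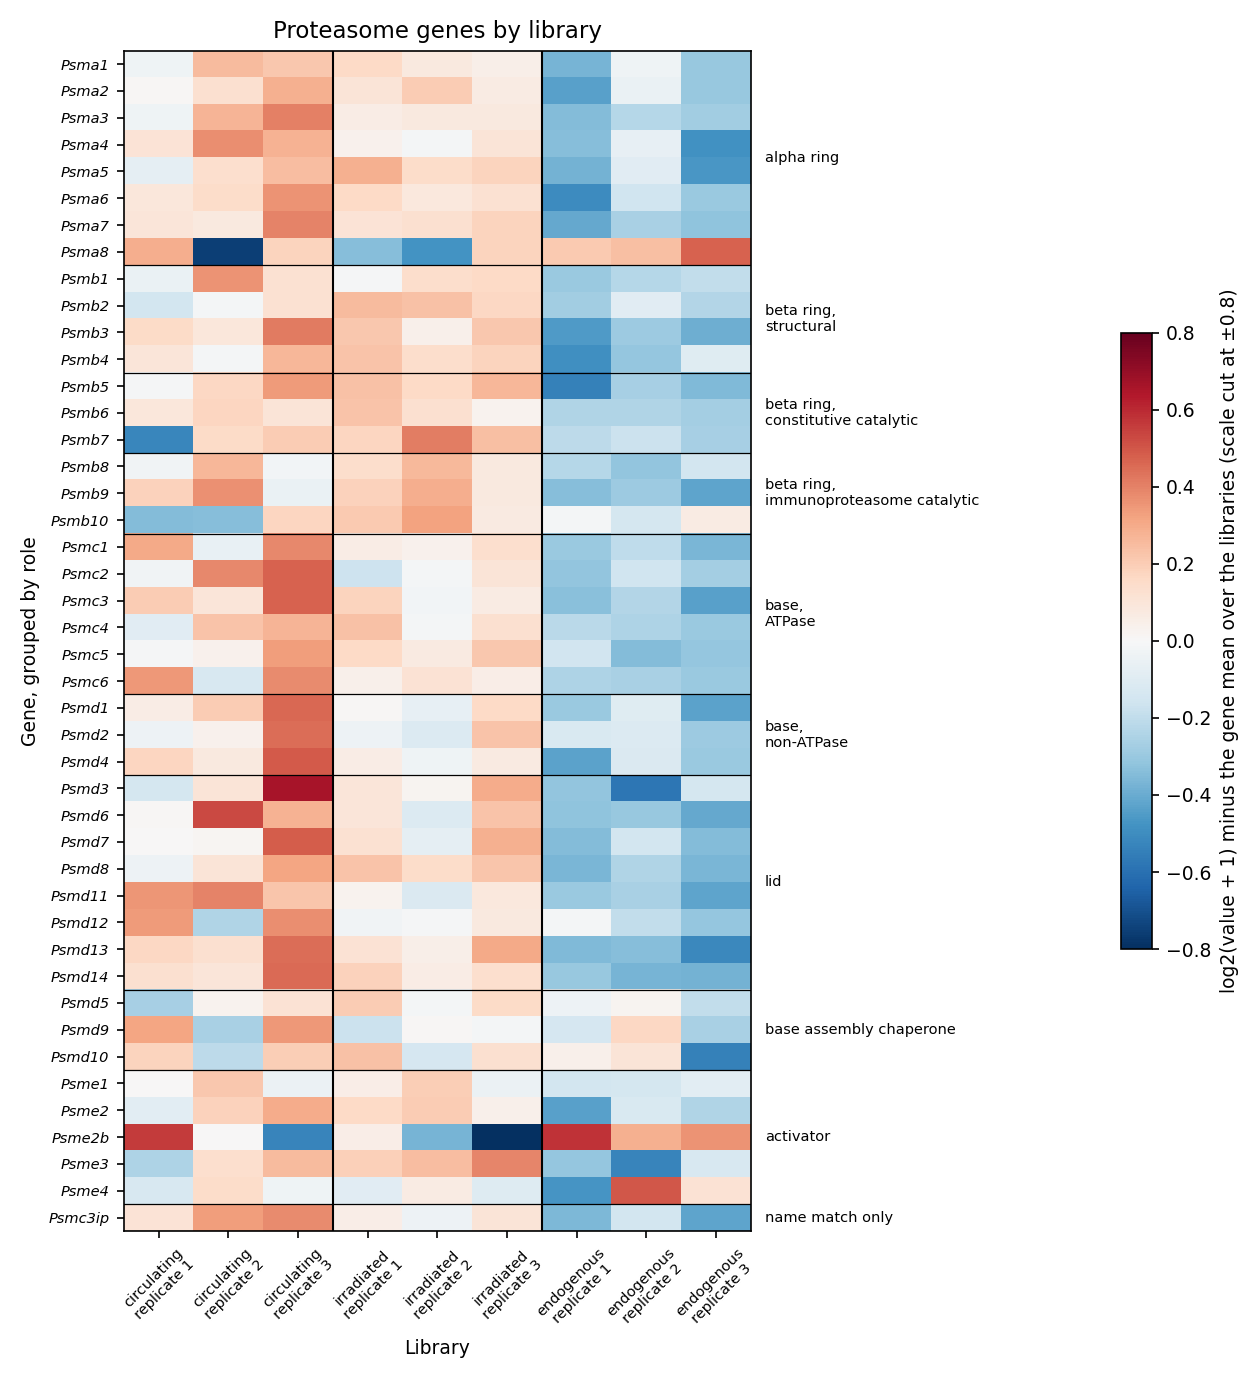
Each row is a gene, grouped by role, and each column a library; colour is log2(value + 1) minus the gene's mean over the 9 libraries, in log2 units, red above and blue below. The rows of the core rings, base and lid are mostly blue in the 3 endogenous columns and pale to red in the circulating and irradiated ones, while Psma8, the chaperones, Psme2b and Psme4 do not show that pattern.

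In the main fit the lid had the most calls of any role, 5 of 8 genes, with a median log2 fold change of 0.56 in circulating against endogenous cells. Of all tested genes 5.33% were called higher, and 17.8% of those with a mean value of at least 100. By limma voom the lid and the alpha ring had 4 calls each, where 4.15% of all tested genes were called higher. With sample weights they had 3 and 2, where 2.47% were. Psmd11, a scaffold subunit that ties the lid to the core, stood at 316, 325 and 288 in circulating, 251, 228 and 262 in irradiated and 201, 206 and 184 in endogenous libraries. Its 3 groups did not overlap and it rose by 0.65 on the log2 scale in circulating cells (SE 0.113, limma adjusted p = 0.0105), the smallest adjusted p of the 44 genes. Psmd13, a structural lid subunit, stood at 184, 179 and 223 in circulating, 177, 169 and 203 in irradiated and 128, 129 and 114 in endogenous libraries. It had the largest log2 fold change of the 44 genes, 0.65 (SE 0.135, limma adjusted p = 0.0191), although the circulating and irradiated libraries overlapped. Psmd14, which removes the ubiquitin chain before a substrate enters, stood at 300.3, 294 and 376 in circulating, 313, 287 and 302 in irradiated and 222, 212 and 212 in endogenous libraries. Its log2 fold change was 0.58 (SE 0.121, limma adjusted p = 0.0201).

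Psmd6, another structural lid subunit, stood at 211, 303 and 256 in circulating, 225, 195 and 247 in irradiated and 168, 170 and 158 in endogenous libraries. Every circulating library was above every endogenous one, with circulating replicate 2 far above the others, and the log2 fold change was 0.62 (SE 0.149, limma adjusted p = 0.0315). Psmd8 was the fifth called lid gene, at 256 ± 32.2 in circulating cells, 268 ± 8.6 in irradiated cells and 187 ± 9.71 in endogenous cells (SD, n = 3 each; limma adjusted p = 0.0445 for circulating against endogenous). Psmd7, the partner of Psmd14, and the structural subunits Psmd3 and Psmd12 did not pass. Psmd3 stood at 158, 187 and 276 in circulating and 140, 117 and 158 in endogenous libraries, so the lowest circulating library met the highest endogenous one.

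In the base, 2 of the 6 ATPase genes and 2 of the 3 other base genes were called higher in circulating against endogenous cells. Of all tested genes 5.33% were. All 6 ATPase genes had circulating libraries wholly above the endogenous ones, with a median log2 fold change of 0.48. Of all tested genes 14.6% had such libraries, and 35.2% of those with a mean value of at least 100. Psmc3 stood at 330, 306 and 398 in circulating, 323, 282 and 299 in irradiated and 227, 243 and 212 in endogenous libraries, a log2 fold change of 0.59 (SE 0.127, limma adjusted p = 0.0212). Psmc1 was the other ATPase called, at 363 ± 57.0 in circulating and 255 ± 14.6 in endogenous cells (SD, n = 3 each; limma adjusted p = 0.0395). Just outside the threshold lay Psmc2, with an adjusted p of 0.0501, which stood at 206, 276 and 292 in circulating and 169, 188 and 174 in endogenous libraries. Psmd1, the large scaffold of the base, stood at 516 ± 73.9 in circulating and 360 ± 42.6 in endogenous cells, and Psmd4, a receptor for ubiquitin chains, at 204 ± 31.8 and 141 ± 15.4 (SD, n = 3 each). Their limma adjusted p was 0.039 and 0.0436. Psmd2, the other scaffold, did not pass, at 499 ± 95.1 in circulating and 396 ± 27.1 in endogenous cells, and the lowest circulating library was above the highest endogenous one.

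In the alpha ring, 4 of 8 genes were called higher, where 5.33% of all tested genes were, with a median log2 fold change of 0.46. Psma7 stood at 403, 398 and 496 in circulating, 406, 411 and 426 in irradiated and 284, 315 and 300.4 in endogenous libraries. Psma6 stood at 388, 403 and 468 in circulating, 407, 386 and 396 in irradiated and 257, 326 and 297 in endogenous libraries. The irradiated libraries of both genes lay close together and above all endogenous libraries, and the log2 fold changes of circulating against endogenous were 0.52 (SE 0.114, limma adjusted p = 0.0231) for Psma7 and 0.52 (SE 0.121, adjusted p = 0.0287) for Psma6. Psma4 stood at 338, 406 and 380 in circulating, 320, 310 and 337 in irradiated and 246, 299 and 223 in endogenous libraries. Psma3 stood at 534, 661 and 722 in circulating, 569, 578 and 576 in irradiated and 429, 467 and 451 in endogenous libraries. For Psma4 the 3 groups formed steps without overlap, and its log2 fold change was 0.55 (SE 0.13, limma adjusted p = 0.0291). For Psma3 the value was 0.50 (SE 0.118, limma adjusted p = 0.0296). Psma1, Psma2 and Psma5 did not pass, and Psma8 had low values of 21.8, 10.03 and 20.1 in circulating and 20.5, 21.0 and 24.8 in endogenous libraries.

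Of the 4 structural beta subunits, Psmb3 was called higher, where 5.33% of all tested genes were. It stood at 217, 208 and 261 in circulating, 227, 201 and 227 in irradiated and 142, 159 and 149 in endogenous libraries, a log2 fold change of 0.60 for circulating against endogenous (SE 0.127, limma adjusted p = 0.0208). Psmb1 and Psmb4 had circulating libraries wholly above the endogenous ones without passing. Psmb2 stood at 286, 314 and 345 in circulating, 378, 373 and 356 in irradiated and 262, 298 and 270 in endogenous libraries. It was the only one of the 44 genes whose circulating libraries lay wholly below the irradiated ones, where 9.26% of all tested genes did so.

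Taking the 31 constitutive subunits of the core and the regulatory particle as one set, without Psma8 and the immunoproteasome subunits, the log2 fold change of circulating against endogenous was above 0 in all 31, except that Psmb2 and Psmb7 turned below 0 with library size as the only scaling. It ran from 0.16 to 0.65 with a median of 0.50. Their mean log2(value + 1) was 8.06, 8.15 and 8.35 in circulating, 8.12, 8.07 and 8.16 in irradiated and 7.68, 7.79 and 7.68 in endogenous libraries. They made up 0.878%, 0.898% and 0.956% of the summed values in circulating, 0.883%, 0.899% and 0.927% in irradiated and 0.74%, 0.792% and 0.742% in endogenous libraries. Circulating and irradiated libraries overlapped and both lay above all endogenous ones. Within a library, the subunits departed from their usual levels least evenly in circulating cells. The SD across the 31 subunits, each centred on its own mean over the libraries, was 0.174, 0.161 and 0.126 log2 units in circulating, 0.104, 0.113 and 0.079 in irradiated and 0.111, 0.113 and 0.093 in endogenous libraries.

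**Figure D2:**
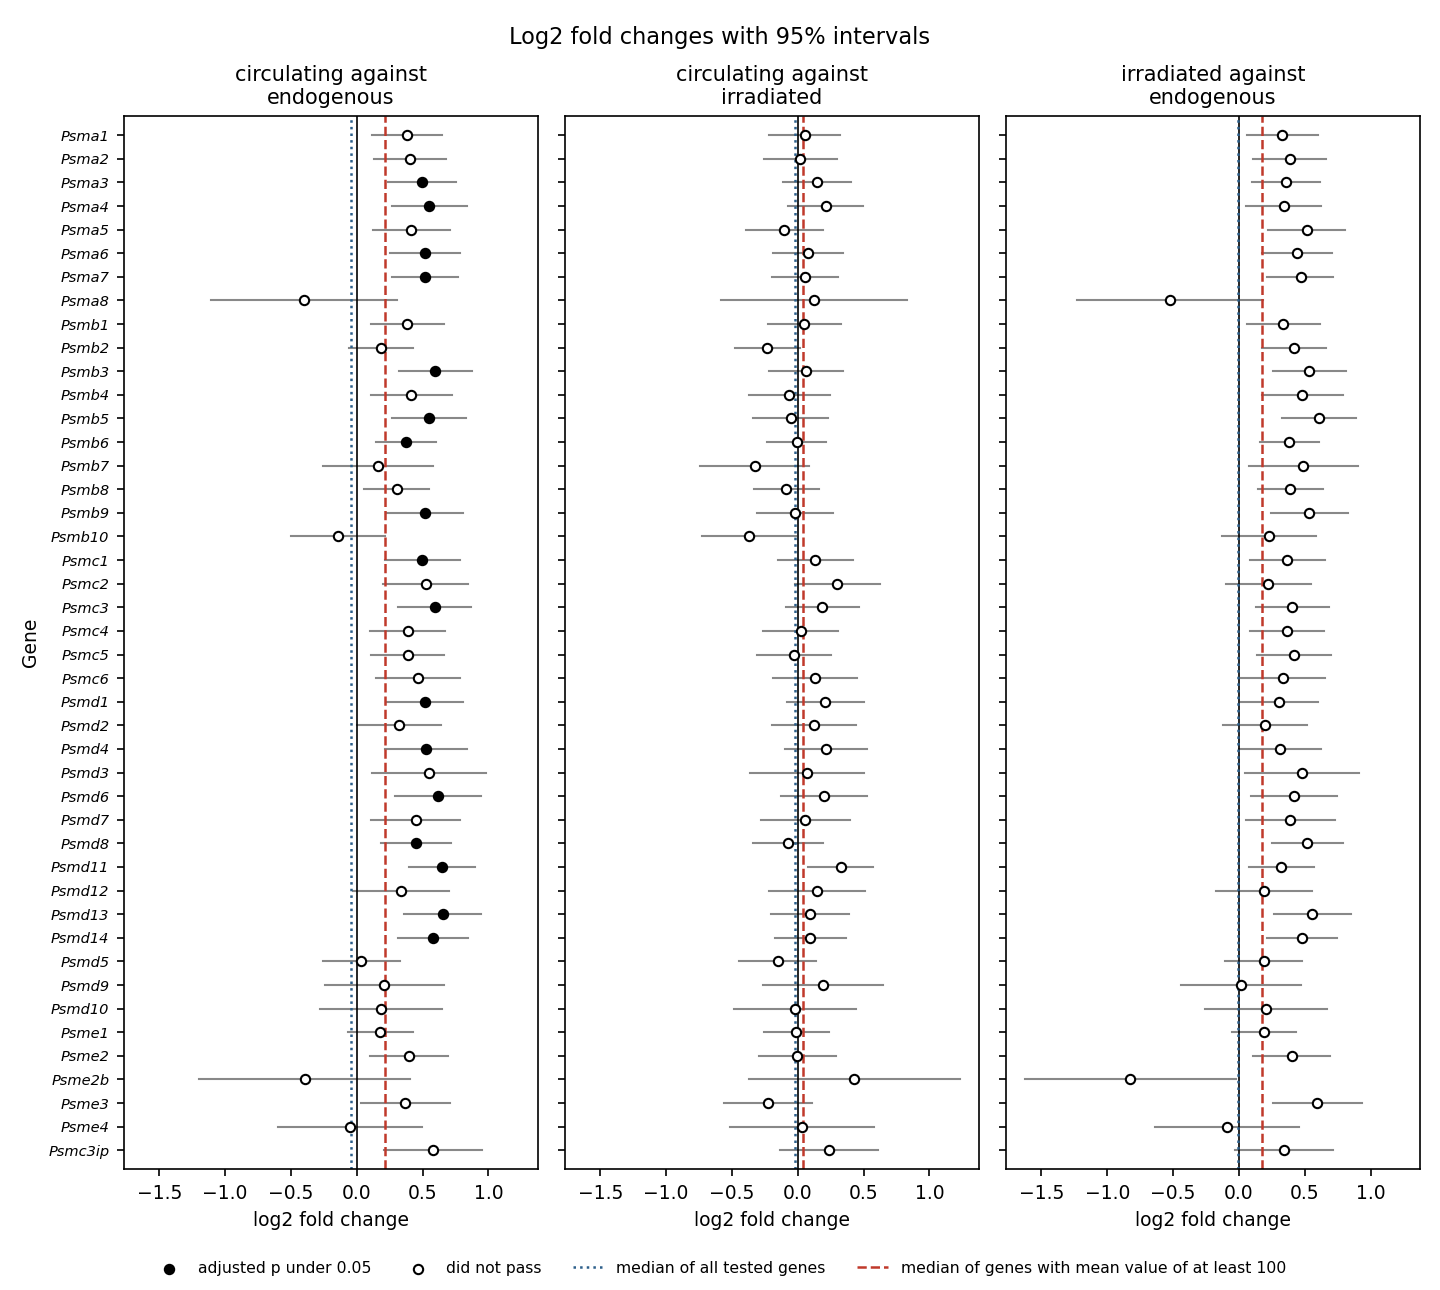
Each row is a gene and each panel a comparison; points are log2 fold changes on the log2(value + 1) scale with 95% intervals, filled where the adjusted p was under 0.05, with lines at the median of all tested genes and of genes with a mean value of at least 100. Of the 44 genes, 17 points are filled for circulating against endogenous and 0 in the other panels, and the points of irradiated against endogenous lie above 0 for 41 genes.

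The second comparison, circulating against irradiated, sets the cells that had circulated against those under the irradiated label, both C57BL/6 by their strain label. No proteasome gene was called with limma, where 0.0290% of all tested genes were called, 0.0218% higher and 0.00726% lower. Among the genes with a mean value of at least 100 it was 0.0811% higher, and 0 of the 38 proteasome genes. None was called with limma voom, where 0.0363% of all tested genes were lower, with sample weights or in a fit of the 2 groups alone. At an unadjusted p under 0.05, 1 gene was higher (Psmd11), against 4.92% of all tested genes, and 1 was lower (Psmb10), against 6.51%. The median log2 fold change was 0.056, against -0.02 over all tested genes and 0.039 over the genes with a mean value of at least 100. In 4 genes the circulating libraries lay wholly above the irradiated ones and in 1 wholly below, against 7.46% and 9.26% of all tested genes. The SE of a gene's log2 fold change was 0.103 to 0.365, so these intervals do not show that circulating and irradiated cells were alike.

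Psmd11 had a log2 fold change of 0.33 between circulating and irradiated cells, with a 95% interval of 0.077 to 0.575 and a limma adjusted p of 0.342. Psmb10, the immunoproteasome subunit that replaces Psmb7, had -0.37, with an interval of -0.729 to -0.015 and a limma adjusted p of 0.421. Its values were 98.2, 98.7 and 141 in circulating and 145, 156 and 131 in irradiated libraries, which overlapped through circulating replicate 3. Psmb2 had -0.23, with an interval of -0.476 to 0.013. Psmb7 had -0.33, with an interval of -0.743 to 0.088, and 1 circulating library at 70.9 lay far below the other two.

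The third comparison, irradiated against endogenous, gave a similar direction without passing the threshold. It shares its endogenous libraries with the first comparison, so the values of both are given side by side without a test of their likeness. No gene of the 44 was called with limma, where 0.472% of all tested genes were called higher and 0.131% lower. At an unadjusted p under 0.05, 32 were higher, against 9.42% of all tested genes, and 1 was lower (Psme2b), against 5.49%. In 36 genes the irradiated libraries lay wholly above the endogenous ones, against 15.2% of all tested genes, and in 2 (Psma8 and Psme2b) wholly below, against 12.5%. The log2 fold change was above 0 in 41 genes, against 49.1% of all tested genes. The median was 0.375, against -0.01 over all tested genes and 0.174 over the genes with a mean value of at least 100. Of the 38 proteasome genes in that class, 0 were called higher, where 1.99% of the class were, and all 38 had a log2 fold change above 0, against 69.9% of the class. In 35 of the 38 the irradiated libraries lay wholly above the endogenous ones, against 36.4% of the class.

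The count of 0 depended on how the spread was shared among the groups. With limma voom it was 0. With sample weights it was 20, where 4.47% of all tested genes were called higher, and in a fit of irradiated and endogenous libraries alone it was 16, where 3.55% were. It was 3 without circulating replicate 1 and 7 without circulating replicate 3, and all of these calls were higher. Of all 13771 tested genes, 198 and 181 were called higher without these libraries, against 65 in the main fit. The genes passing in the fit of the 2 groups alone included all 3 constitutive catalytic subunits, Psmb8, Psmb9, the alpha subunits Psma3, Psma5, Psma6 and Psma7, and the lid subunits Psmd8, Psmd13 and Psmd14.

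The smallest adjusted p of irradiated against endogenous was that of Psmb5, 0.0619, with a log2 fold change of 0.61 (SE 0.129). Psmd8 had a log2 fold change of 0.52 (limma adjusted p = 0.0845), Psmb3 0.54 (adjusted p = 0.0912) and Psmd13 0.56 (adjusted p = 0.0946). Set against endogenous cells, circulating cells had log2 fold changes of 0.55 for Psmb5, 0.45 for Psmd8, 0.60 for Psmb3 and 0.65 for Psmd13. Psmd11 had 0.32 for irradiated against endogenous and 0.65 for circulating against endogenous. It was among the 4 genes whose circulating libraries lay wholly above the irradiated ones, where 7.46% of all tested genes did so. Its difference between circulating and irradiated cells did not pass (limma adjusted p = 0.342). By role, the median log2 fold change of irradiated against endogenous was 0.37 in the alpha ring, 0.45 in the structural beta subunits, 0.37 in the ATPases, 0.31 in the other base subunits and 0.45 in the lid. Over the 31 constitutive subunits it ran from 0.19 to 0.61, with a median of 0.39.

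The catalytic subunits were set pair by pair, with calls from the main fit. In circulating against endogenous cells none was called with sample weights or in the fit of these groups alone. Of all tested genes 2.47% and 1.15% were called higher in those fits. None was called with library size as the only scaling either. By limma voom Psmb5 and Psmb9 kept their calls and Psmb6 did not. Psmb5, the chymotrypsin-like constitutive subunit, stood at 211, 238 and 269 in circulating, 250.3, 237 and 256 in irradiated and 146, 177 and 166 in endogenous libraries. It was called higher in circulating against endogenous cells, with a log2 fold change of 0.55 (SE 0.129, limma adjusted p = 0.0285). Its counterpart Psmb8 stood at 547, 671 and 549 in circulating, 614, 669 and 589 in irradiated and 476, 447 and 504 in endogenous libraries. Both groups lay wholly above the endogenous libraries, but Psmb8 was not called, with a log2 fold change of 0.30 for circulating (SE 0.113, limma adjusted p = 0.116) and 0.39 for irradiated cells (adjusted p = 0.141).

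Psmb6, the caspase-like constitutive subunit, stood at 328, 347 and 331 in circulating, 361, 337 and 315 in irradiated and 260.3, 260.1 and 255 in endogenous libraries. It was called higher in circulating against endogenous cells by 0.38 on the log2 scale (SE 0.103, limma adjusted p = 0.0456), the called gene nearest to the threshold. Its counterpart Psmb9 stood at 235, 267 and 199 in circulating, 235, 254 and 219 in irradiated and 163, 169 and 154 in endogenous libraries. It was the only immunoproteasome subunit called, by 0.52 in circulating against endogenous cells (SE 0.133, limma adjusted p = 0.0379), and its log2 fold change for irradiated against endogenous was 0.54 (adjusted p = 0.0994). The Psmb9 exons overlap those of Tap1 by 212 bases on the other strand, and the libraries do not mark strand. Tap1 did not pass, at 191 ± 22.3 in circulating cells, 202 ± 6.78 in irradiated cells and 169 ± 50.9 in endogenous cells (SD, n = 3 each).

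Psmb7, the trypsin-like constitutive subunit, stood at 70.9, 114 and 118 in circulating, 115, 136 and 121 in irradiated and 88.4, 90.5 and 84.8 in endogenous libraries. Circulating replicate 1 was the lowest of all 9 libraries and the other circulating libraries were above all endogenous ones, so the groups overlapped and the log2 fold change of 0.16 did not pass (limma adjusted p = 0.621). It turned to -0.04 with library size as the only scaling. Its counterpart Psmb10 stood at 98.2, 98.7 and 141 in circulating, 145, 156 and 131 in irradiated and 124, 114 and 131 in endogenous libraries. It was the only catalytic subunit whose log2 fold change of circulating against endogenous was below 0, at -0.14 with a 95% interval of -0.498 to 0.216. For irradiated against endogenous its log2 fold change was 0.23, and the irradiated libraries lay just above the endogenous ones.

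**Figure D3:**
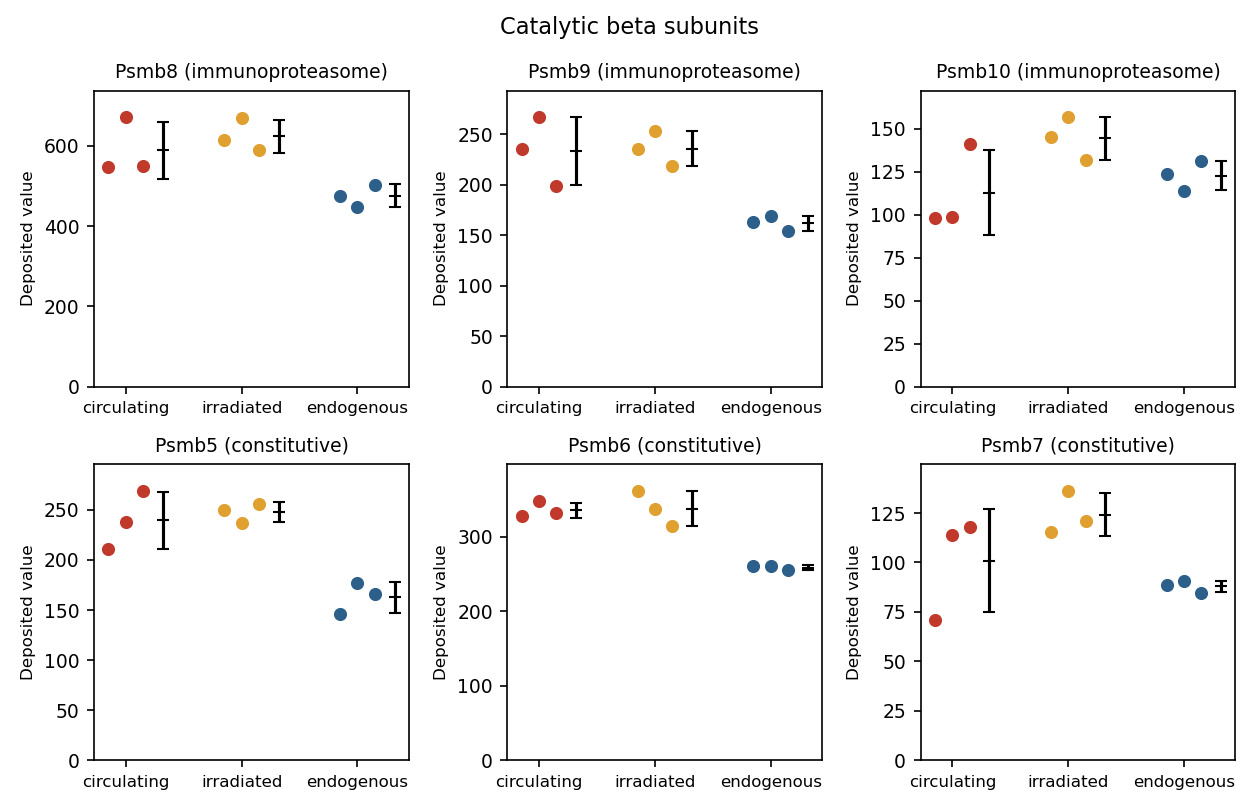
Deposited values of the immunoproteasome subunits (top) and their constitutive counterparts (bottom); points are libraries, and bars beside them are the mean and SD of the 3 libraries of a group. Psmb5, Psmb6, Psmb8 and Psmb9 have all circulating and irradiated points above all endogenous points, while circulating Psmb7 and Psmb10 spread across the endogenous range.

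The balance between immunoproteasome and constitutive catalytic subunits overlapped between the groups. The differences in this and the next paragraph are not scaled by transcript length, so they compare libraries and do not rank the 2 genes of a pair. The mean log2(value + 1) of Psmb8, Psmb9 and Psmb10 minus that of Psmb5, Psmb6 and Psmb7 was 0.452, 0.302 and 0.184 in circulating, 0.335, 0.428 and 0.264 in irradiated and 0.501, 0.348 and 0.498 in endogenous libraries. The group means were 0.313 ± 0.134, 0.342 ± 0.082 and 0.449 ± 0.088 in the same order (SD, n = 3 each). The mean difference was -0.136 between circulating and endogenous, -0.03 between circulating and irradiated and -0.107 between irradiated and endogenous cells. No test was made because the score is taken over chosen genes.

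The log2 difference of Psmb8 and Psmb5 was 1.37, 1.49 and 1.03 in circulating, 1.29, 1.49 and 1.198 in irradiated and 1.70, 1.34 and 1.59 in endogenous libraries. That of Psmb9 and Psmb6 was -0.48, -0.38 and -0.73 in circulating, -0.62, -0.41 and -0.53 in irradiated and -0.67, -0.62 and -0.72 in endogenous libraries. That of Psmb10 and Psmb7 was 0.47, -0.21 and 0.26 in circulating, 0.33, 0.20 and 0.12 in irradiated and 0.48, 0.33 and 0.62 in endogenous libraries. For the Psmb8 and Psmb10 pairs the mean was lower in circulating than in endogenous libraries, by -0.248 and -0.303, and for the Psmb9 pair it was higher, by 0.142, with overlap in all of them.

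Scaled by transcript length, Psmb8 held 57.6% ± 4.09 of the sum of Psmb8 and Psmb5 in circulating cells, 58.1% ± 2.54 in irradiated cells and 61.7% ± 3.08 in endogenous cells (SD, n = 3 each). Psmb9 held 29.0% ± 2.58 of its pair in circulating cells, 29.2% ± 1.52 in irradiated cells and 27.0% ± 0.721 in endogenous cells. Psmb10 held 49.96% ± 5.99 of its pair in circulating cells, 50.7% ± 1.87 in irradiated cells and 55.2% ± 2.56 in endogenous cells. All groups of LSK cells carried RNA of both kinds of subunit at levels of the same order, with Psmb8 above Psmb5 and Psmb9 below Psmb6 in each of the 9 libraries.

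**Figure D4:**
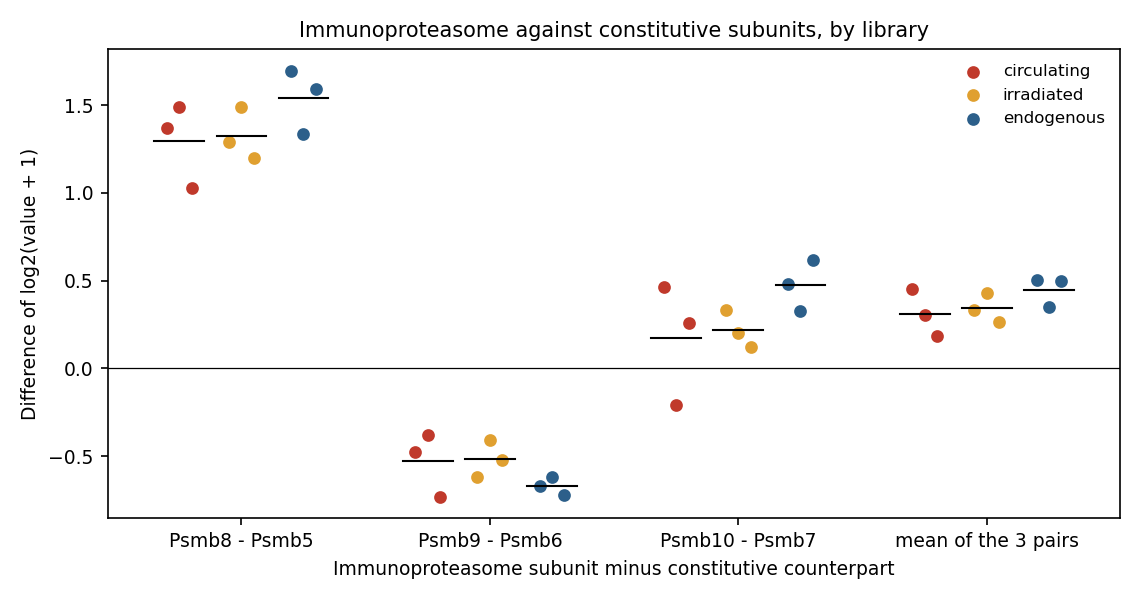
Difference of log2(value + 1) between each immunoproteasome subunit and its constitutive counterpart, and the mean of the 3 pairs, in each library, not scaled by transcript length; lines are group means. The points of the groups overlap in every pair, the mean of the 3 pairs lies between 0.184 and 0.501 in all libraries, and the lowest Psmb10 point is circulating replicate 2, at -0.21.

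No activator was called in any comparison with limma, where 5.33% of all tested genes were called higher in circulating against endogenous cells. Of the 5 activators, 2 had an unadjusted p under 0.05 there and none was called by limma voom, with sample weights or in the fit of the 2 groups alone. Psme1 and Psme2 form the interferon-inducible activator. Psme1 stood at 408, 473 and 394 in circulating, 423, 466 and 394 in irradiated and 368, 369 and 384 in endogenous libraries. Psme2 stood at 246, 297 and 321 in circulating, 292, 300.4 and 269 in irradiated and 193, 240.3 and 221 in endogenous libraries. Circulating libraries of both lay above the endogenous ones, by 0.18 for Psme1 and 0.40 for Psme2 on the log2 scale (limma adjusted p = 0.329 and 0.0896), and Psme1 turned to -0.02 with library size as the only scaling.

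Psme3, the activator of the nucleus, stood at 243, 317 and 344 in circulating, 330, 342 and 378 in irradiated and 233, 200 and 264 in endogenous libraries. The irradiated libraries were wholly above the endogenous ones, with a log2 fold change of 0.60 (limma adjusted p = 0.109), which passed with sample weights and in the fit of the 2 groups alone. Psme4 stood at 29.5, 36.0 and 31.6 in circulating, 30.4, 34.0 and 30.1 in irradiated and 23.1, 46.0 and 35.2 in endogenous libraries, and the endogenous libraries enclosed all the others. Psme2b, a near copy of Psme2 whose reads cannot be placed with certainty, stood at 16.1, 10.6 and 7.05 in circulating, 11.1, 7.98 and 5.06 in irradiated and 16.3, 13.1 and 13.9 in endogenous libraries.

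The chaperones that help assemble the base were the one role in which circulating and irradiated libraries overlapped the endogenous ones in every gene. Psmd5 stood at 187, 229 and 243 in circulating, 258, 222 and 250 in irradiated and 218, 228 and 195 in endogenous libraries. Psmd9 stood at 62.5, 41.5 and 63.8 in circulating, 44.3, 50.3 and 49.3 in irradiated and 45.3, 56.2 and 41.6 in endogenous libraries, and Psmd10 at 71.3, 54.4 and 72.1 in circulating, 74.1, 57.3 and 68.7 in irradiated and 64.7, 67.7 and 42.9 in endogenous libraries. None of the 3 passed, at an unadjusted p under 0.05 or by limma voom, in any comparison. Psmc3ip, the gene matched by name, stood at 50.8, 59.6 and 61.4 in circulating, 48.9, 45.7 and 50.6 in irradiated and 36.6, 42.5 and 34.9 in endogenous libraries, with an adjusted p of 0.057 by limma for circulating against endogenous. Exons of Psmd13, Psmc3, Psmb7 and Psmc3ip overlap exons of Sirt3, Slc39a13, Nek6 and Mlx on the other strand by 342, 215, 405 and 385 bases, so part of their reads could come from those genes.

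Genes around the proteasome were described by lists chosen for their known roles. Their counts stand beside the shares of all tested genes called in circulating against endogenous cells, 5.33% higher and 3.30% lower. With sample weights these shares were 2.47% and 1.12%, and in the fit of these groups alone 1.15% and 0.581%. In lists this short, 1 call does not set a list apart from all tested genes. Of 9 assembly factors, the 3 chaperones included, 1 rose in circulating against endogenous cells and 0 fell, with a median log2 fold change of 0.211. It was Pomp, the maturation factor of the barrel, at 218 ± 12.1 in circulating cells, 201 ± 1.64 in irradiated cells and 164 ± 14.4 in endogenous cells (SD, n = 3 each; limma adjusted p = 0.0476), and it was not called with voom or sample weights. Of 8 other proteins bound to the proteasome, 2 rose and 1 fell, against 1 and 0 with sample weights and 0 and 0 in the fit of these groups alone. Uchl5, a deubiquitinase of the base, stood at 349 ± 48.1 in circulating cells, 298 ± 7.56 in irradiated cells and 219 ± 18.5 in endogenous cells (adjusted p = 0.0142). Sem1, the small lid subunit, stood at 197 ± 18.7, 185 ± 1.18 and 133 ± 11.2 in the same order (adjusted p = 0.0234). Ube3c, a ligase that extends ubiquitin chains at the proteasome, stood at 18.9 ± 2.89 in circulating cells, 37.9 ± 5.72 in irradiated cells and 37.4 ± 6.49 in endogenous cells (adjusted p = 0.0296 for circulating against endogenous), and was not called with sample weights.

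Lists of genes that control or feed the proteasome held no call. In circulating against endogenous cells 5.33% of all tested genes were called higher and 3.30% lower. In lists this short, 0 calls does not set them apart from all tested genes. Of 6 tested genes of NRF1 and its processing, none was called in any comparison with limma or voom. At an unadjusted p under 0.05 there were 0 higher and 2 lower in circulating against endogenous cells, against 14.2% and 12.5% of all tested genes. Nfe2l1 itself stood at 36.3 ± 7.04 in circulating cells, 32.5 ± 8.14 in irradiated cells and 41.8 ± 16.7 in endogenous cells. Nfe2l2, the related NRF2, stood at 145 ± 15.8 in circulating cells, 154 ± 4.7 in irradiated cells and 156 ± 10.5 in endogenous cells (SD, n = 3 each). Of 15 genes that make ubiquitin or deliver substrates, none was called in any comparison with limma or voom. None had an unadjusted p under 0.05 in circulating against endogenous cells, where 26.7% of all tested genes had one. Their median log2 fold change there was 0.097.

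The median log2 fold change of 12 genes of MHC class I processing was 0.107 in circulating against endogenous cells. Of the 12 genes 1 rose and 0 fell, where 5.33% and 3.30% of all tested genes did. It was Pdia3, a chaperone of class I loading and of glycoprotein folding, at 1633.5 ± 463 in circulating cells, 1123 ± 125 in irradiated cells and 802 ± 52.2 in endogenous cells (SD, n = 3 each; limma adjusted p = 0.0103). Nlrc5, the class I transactivator, did not pass, with 55.4 ± 13.7 in circulating cells, 66.6 ± 13.2 in irradiated cells and 68.0 ± 17.6 in endogenous cells. Of 13 genes of interferon signalling, 1 rose and 1 fell, against the same shares of all tested genes. Both calls were lost in the fit of these groups alone. Ifngr1, a chain of the interferon gamma receptor, stood at 491 ± 192 in circulating cells, 256 ± 41.1 in irradiated cells and 205 ± 12.6 in endogenous cells (adjusted p = 0.0168). Irf9, part of the type I interferon complex, stood at 111 ± 3.86, 115 ± 3.8 and 177 ± 9.45 in the same order, lower in circulating (adjusted p = 0.0105) and in irradiated (adjusted p = 0.0425) than in endogenous cells. For Irf1, which activates immunoproteasome genes, the means were 226 ± 38.2 in circulating cells, 225.9 ± 31.4 in irradiated cells and 247 ± 19.8 in endogenous cells, and it did not pass in any comparison.

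Interferon-induced genes outside the proteasome held both falling genes and genes that did not pass. Of 17 tested, 0 rose and 6 fell in circulating against endogenous cells, where 5.33% and 3.30% of all tested genes did. The median log2 fold change was -1.02. With sample weights 5 fell, where 1.12% of all tested genes did. The summed value was 889 to 1126 in circulating, 1124 to 1288 in irradiated and 1286 to 1429 in endogenous libraries. Ifi44 stood at 35.4 ± 10.98 in circulating cells, 38.4 ± 5.92 in irradiated cells and 112 ± 2.25 in endogenous cells (limma adjusted p = 0.00476 for circulating and 0.0168 for irradiated against endogenous). Ifit1 stood at 9.45 ± 1.11 in circulating and 35.6 ± 7.41 in endogenous cells, and Oasl2 at 74.5 ± 20.9 and 164 ± 9.59 (SD, n = 3 each). Of the 11 that did not pass, Gbp3, Ifi47 and Bst2 had log2 fold changes above 0 in circulating against endogenous cells, at 0.17, 0.12 and 0.02. They also stood above 0 in irradiated against endogenous cells, at 0.40, 0.51 and 0.29. Psmb8, Psmb9, Psme1 and Psme2, which interferon also induces, all had log2 fold changes above 0 for circulating against endogenous (Psme1 not with library size as the only scaling), and Psmb10 had one below 0. Of these genes only Psmb9 passed.

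Genes of G2/M and mitosis also stood higher in circulating and irradiated than in endogenous cells. Of 16, 14 rose and 0 fell in circulating against endogenous cells, with a median log2 fold change of 1.01. Of all tested genes 5.33% were called higher and 3.30% lower there. In the fit of these groups alone 8 rose, where 1.15% of all tested genes did. In irradiated against endogenous cells 4 rose, where 0.472% of all tested genes did, with a median of 0.86. With sample weights 16 rose there, where 4.47% of all tested genes did. Birc5, of the chromosomal passenger complex, stood at 191 ± 27.7 in circulating cells, 177 ± 10.4 in irradiated cells and 79.3 ± 7.8 in endogenous cells, and Ccnb2, a mitotic cyclin, at 285 ± 28.7, 258 ± 25.4 and 140 ± 5.25 (SD, n = 3 each). The summed value of the 16 was 3553 to 5588 in circulating, 3575 to 4331 in irradiated and 2240 to 2394 in endogenous libraries. The part of cell cycle state in the subunit values was not tested.

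**Figure D5:**
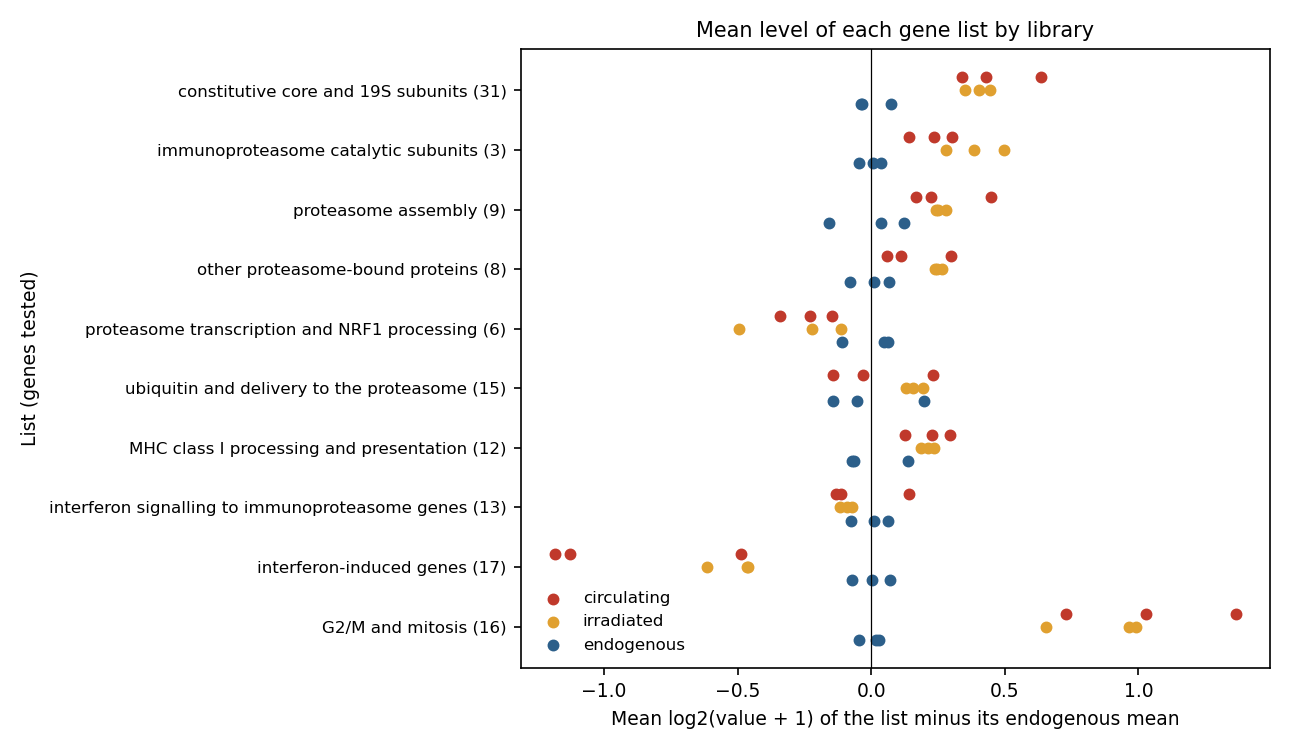
Each point is a library: the mean log2(value + 1) of the tested genes of a list minus the mean of that list over the endogenous libraries, in log2 units. The circulating points of the 31 constitutive subunits lie at 0.338 to 0.634 and the irradiated points at 0.35 to 0.444; G2/M genes lie further right, interferon-induced genes further left, and the ubiquitin and interferon signalling lists around 0.

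Some of the transcripts used as markers of other cell types were present in all groups. None was called in circulating against irradiated cells, and 1 was called in irradiated against endogenous cells (Nkg7, higher, limma adjusted p = 0.0144). In circulating against endogenous cells some were called, where 5.33% of all tested genes were called higher and 3.30% lower. The summed value of 5 dendritic cell markers was 34.5 to 209.8 in circulating, 16.7 to 23.0 in irradiated and 13.9 to 30.6 in endogenous libraries, and 2 of 4 tested rose in circulating against endogenous cells. Xcr1 among them stood at 24.1, 118 and 30.8 in circulating, against 5.08, 3.82 and 8.68 in endogenous libraries. The summed value of 6 B cell markers was 107 to 282 in circulating, 67.6 to 93.5 in irradiated and 69.3 to 99.2 in endogenous libraries, and 2 of 5 tested rose. Of 5 monocyte and macrophage markers 1 rose (Ly6c2), with sums of 413 to 1544, 278 to 737 and 130 to 213 in the same order. Most of these sums was Ly6c2, at 379, 939 and 1443 in circulating and 172, 92.8 and 96.4 in endogenous libraries. At an unadjusted p under 0.05 by limma, 2 of the 5 were higher and 1 lower. C1qa stood lower, at 0.832, 2.59 and 2.24 in circulating and 5.12, 3.90 and 4.15 in endogenous libraries. Of 5 erythroid markers 1 rose (Klf1), with sums of 32.4 to 178, 30.3 to 64.4 and 31.2 to 102 in circulating, irradiated and endogenous libraries. Of 4 tested T and NK cell markers 1 rose (Nkg7), with sums of 517 to 909, 537 to 651 and 229 to 280. Most of these sums was Nkg7. It stood at 513, 662 and 896 in circulating, 527, 565 and 649 in irradiated and 228, 275 and 220.1 in endogenous libraries. Cd3d stood at 0.65, 7.01 and 3.91 in circulating and 0.135, 0.269 and 1.19 in endogenous libraries. The sums thus mostly follow 1 gene and do not measure T and NK cells. Of 7 neutrophil markers 0 rose and 2 fell, with sums of 1136 to 1808, 793 to 1968 and 1069 to 2242. Of the 5 gate markers Kit fell, with sums of 2064 to 3266, 2706 to 3013 and 3845 to 4208. By limma voom, and likewise with sample weights, 1 B cell, 1 dendritic cell, 0 erythroid and 0 monocyte markers rose in circulating against endogenous cells. The shares of all tested genes called higher were 4.15% by voom and 2.47% with sample weights. The neutrophil and erythroid sums overlapped between all groups. Pax5, Cd3e and Siglech did not reach the filter on low values. The part of other cells in the proteasome values was not tested.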

How the data were processed

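The aligner is not given in the sources used here. Per the submitters' processing notes the tools were CASAVA, RSEM 1.3.1 and limma, on mm10. Per the labels' protocols, sorted cells gave RNA for SMART-Seq v4 amplification, followed by Nextera XT library preparation, which does not mark strand. The deposited table holds a normalised signal for 14461 genes in 9 libraries, not counts: each value is an estimated count plus 0.5 multiplied by a constant of its library, so a count of 0 has a value of 0.0182 to 0.0376. Depth speaks for counting error only, because amplified reads carry no molecular identifiers. Annotation was GENCODE M21 on GRCm38; 14405 genes matched a symbol and 56 did not. Promoter windows came from RefSeq on GRCm38.p6.

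Values of at least 1 in at least 3 libraries were required, leaving 13771 genes. They were fitted as log2(value + 1) with limma 3.58.1 in R 4.3.3 (trend, robust moderation, all 9 libraries, no covariate), two-sided, with Benjamini-Hochberg adjustment over all tested genes and a threshold of 0.05. The log2(value + 1) scale understates changes of low genes. The fit was tested on simulated data. Alternatives were another pseudocount (0.25), no filter, library size alone, median-of-ratios scaling, limma voom, sample weights, the compared groups alone, a replicate block and each library left out. Replicate numbers were not taken as pairs. The genes, lists and tests were chosen with earlier results of these data known. Genes named with values are the catalytic subunits, the activators, every called gene (by library for the 12 with the smallest adjusted p), the highest and lowest per length, up to 4 called genes of each list, and Nfe2l1, Nfe2l2, Irf1, Nlrc5 and Pomp, with 1 further gene of that rule not reported here; other genes were named after their values were seen, as those that stood apart from their role.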

Additional observations from a re-analysis of the deposited data

How the results depend on the processing

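For circulating against endogenous, the count of proteasome genes called, 17, was 15 with voom, 18 with median-of-ratios scaling, 7 with sample weights, 1 in the compared groups alone, 2 with library size as the only scaling and 1 to 27 with a library left out. Of all tested genes, 734 were called higher in the main fit. In the same order the alternatives gave 571, 777, 340, 159, 336 and 183 to 1197. For irradiated against endogenous, the count of 0 became 20 with sample weights, 16 in the compared groups alone and 0 to 7 with a library left out. Of all tested genes, 65 were called higher in the main fit, and 615, 489 and 3 to 198 in these alternatives. For circulating against irradiated the count of proteasome genes was 0 under every alternative run. All calls of proteasome genes under these alternatives were higher. The median log2 fold change moved to 0.212 (circulating against endogenous) and 0.24 (irradiated against endogenous) with library size alone and otherwise by less than the spread between replicates. With library size alone Psmb7 reversed to -0.039 and Psme1 to -0.023 in circulating against endogenous; Psmb2, not called either, turned to -0.018 there. Sample weights and the fit of the compared groups change how much the wider spread of circulating libraries enters; leaving a library out also leaves fewer residual degrees of freedom; other causes were not tested. Without Psmc3ip, an alternative added after seeing the data, the count stayed at 17 and the median was 0.414. Each circulating library shares with the irradiated one of its number a title code of unstated meaning, so a pairing there cannot be told from the labels. Their deviations from the group means correlated at 0.05, 0.031 and 0.182, against -0.167 to 0.106 for circulating and irradiated libraries of different numbers. Same-numbered libraries of all comparisons correlated at -0.023 to 0.182. These values do not settle whether circulating and irradiated libraries are paired, and the numbers were not taken as pairs. With a replicate block, 15 proteasome genes were called for circulating against endogenous, 14 of them among the 17, and 0 in the other comparisons. Of all tested genes, 716 were then called higher for circulating against endogenous and 83 for irradiated against endogenous.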
